A study of Homo sapiens with 8 samples.

Results

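A set of 7 chemokine ligand genes that B cells can express was followed in Raji cells, an Epstein-Barr virus positive Burkitt lymphoma line of B cell origin: CCL22, CCL17, CCL3, CCL4, CCL5, CXCL9 and CXCL10. They are 7 of the 25377 genes of the RNA table, together with the 16 of 70312 ATAC peaks that the annotation names for them. The genes were chosen with their RNA fold changes known, so their RNA values are given here as a description without a test. The peaks were taken by gene name alone and come from other libraries.

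Wild-type Raji cells were compared with RGS-SE knockout cells, in which a pair of Cas9 guides was used to delete a super-enhancer lying between RGS1 and RGS13 on chromosome 1, labelled chr1:192515157-192741754 (hg38). The knockout was made by electroporation of a Cas9 vector and guide plasmids, brief puromycin selection and isolation of single clones, whose number is not given in the sources used here. Genotype and clone therefore cannot be told apart. Gene expression was read by poly(A) RNA-seq and chromatin accessibility by ATAC-seq, in which a transposase tags open DNA in about 50000 cells. Each assay had 2 wild-type and 2 knockout libraries labelled as biological replicates, 8 libraries in all, and the labels name no other treatment.

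Chemokines are small secreted proteins that direct the migration of leukocytes through G protein-coupled receptors. CCL22 and CCL17 bind CCR4 on regulatory and helper T cells, CXCL9 and CXCL10 bind CXCR3 on activated T and NK cells and are classical interferon-inducible genes, and CCL3, CCL4 and CCL5 recruit T cells, NK cells and monocytes, with CCL3 and CCL5 binding CCR1. Activated B cells, including those signalling through CD40, the B cell receptor or the viral protein LMP1, are known sources of several of these ligands, and NF-kB, STAT and interferon regulatory factors act on their promoters.

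The deposited tables give a mean over the 4 libraries of each assay, from which the whole reads of each library were worked out exactly. Libraries are called A and B within a genotype by relative depth, since the tables carry no replicate number. The RNA size factors, which scale with depth, were 1.30 and 0.717 in wild type A and B and 1.07 and 1.03 in the knockout. The ATAC size factors lay between 0.911 and 1.10. The tables do not state the direction of their fold changes, and positive was read as higher in the knockout because the peak at chr1:192609102-192609836, inside the targeted interval, had 679 and 592 reads in one pair of libraries and 0 and 0 in the other pair. The RNA table was read the same way: ENSG00000289995, a noncoding RNA that starts at that peak, had 44 and 2 reads in one pair and 0 and 0 in the other. RGS1, which also lies inside the labelled interval, goes the other way under this coding. It had 471 and 385 normalised counts in wild type and 4840 and 4805 in the knockout. Whether the whole labelled interval was lost was not tested. With the opposite coding in both assays all directions below would be inverted. With it in a single assay only the directions of that assay would be, and comparisons of RNA with accessibility would change. Markers of B cells were detected in full, 8 of 8, while 3 of 10 markers of T and NK cells were in the table and the highest of these, NKG7, was at 0.176 CPM (CPM scales counts to a common library total); the defining genes CD3D, CD2 and CD8A were not listed, and the list summed to 0.234 and 0 CPM in wild type and 0.286 and 0.562 CPM in the knockout. Of 12 myeloid and dendritic cell markers 8 were listed and 4 were tested. Of these 0 passed the threshold (DESeq2 adjusted p under 0.05), where 19.2% of all tested genes passed in either direction. CSF1R alone had an unadjusted DESeq2 p under 0.05, with 1 and 0 reads in wild type and 7 and 24 in the knockout. The log2 fold changes of CSF1R, ITGAM, ITGAX and LAMP3 were 4.93, -0.71, -0.19 and 0.07. The summed level of the 8 listed was 2.66 and 1.74 CPM in wild type against 2.32 and 2.19 CPM in the knockout. Of 6 epithelial and stromal markers 3 were listed, and COL1A1, a collagen gene, rose by 1.10 (DESeq2 adjusted p 0.0180) from 117 and 142 to 306 and 249 normalised counts; its part in the ligand values was not tested. Of the B cell markers CR2, MS4A1 and BLK rose by 1.13, 1.06 and 0.46 and CD79B fell by 0.78 on the log2 scale.

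All 7 ligand RNAs were higher in both knockout libraries than in either wild-type library. Genes that did not pass the test, such as CCL3L3 and RELA, also kept the genotypes apart. The share of all genes that did so was not worked out, so nothing is read from this separation. The summed fitted level of the 7 ligands was 37.8 CPM in wild type and 464 CPM in the knockout. Their median log2 fold change was 3.84 against 0.02 over all 17013 genes tested. Of the 7, 6 passed the threshold in the deposited table, all higher, where 19.2% of tested genes passed in either direction and 9.89% passed as higher; nothing is read from this count, since the genes were chosen on it. CCL4 did not pass. In bulk RNA a larger share of expressing cells and more RNA per cell cannot be told apart.

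**Figure D1:**
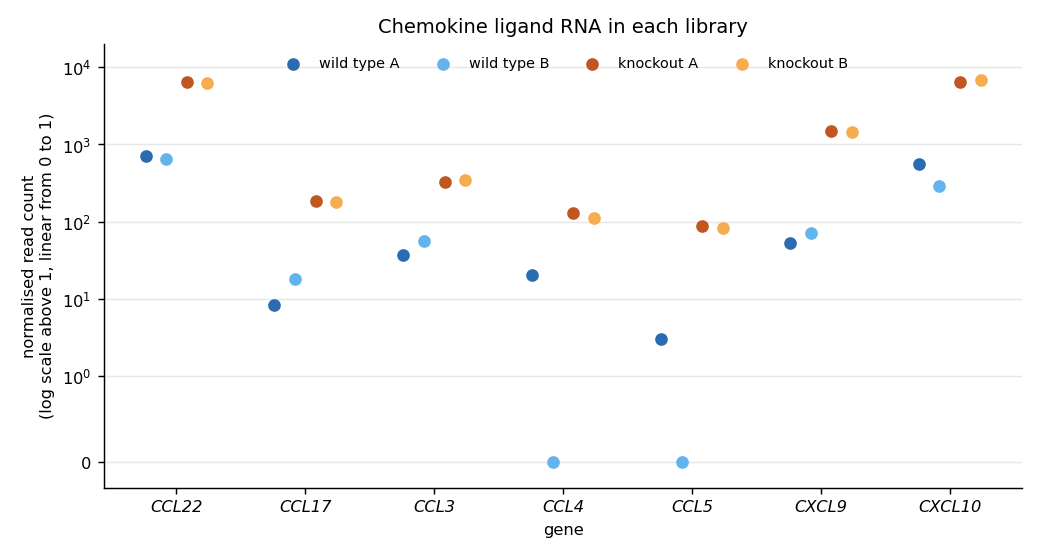
Normalised RNA read count (vertical axis, logarithmic above 1 and linear from 0 to 1) of the 7 ligand genes in each of the 4 RNA libraries, 1 point a library. Both knockout points lie above both wild-type points for every gene, and CCL4 and CCL5 had 0 reads in wild type B.

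CCL22 and CCL17, the ligands of CCR4, are neighbours on chromosome 16 and both had more RNA in the knockout. CCL22 (ENSG00000102962, chr16:57358783-57366189, forward strand, GRCh38) had normalised counts of 719 and 644 in wild type A and B and of 6526 and 6339 in knockout A and B. The knockout pair differed 1.03-fold and the wild-type pair 1.12-fold, against 8.81-fold between the lowest knockout and the highest wild-type value. The deposited log2 fold change was 3.24 (SE 0.17), or 9.42-fold, and lay between 3.16 and 3.32 when any 1 library was left out. CCL17 (ENSG00000102970, chr16:57404767-57416063, forward strand) had 11 and 13 reads in wild type, or normalised counts of 8.44 and 18.1, and 196 and 186 reads in the knockout, or 184 and 181. Its log2 fold change was 3.84 (SE 0.58), and it was 4.43 without wild type B, the library whose few reads gave the higher wild-type value. CX3CL1, the membrane-bound chemokine gene that lies between them, had 0 and 0 reads in wild type and 3 and 4 in the knockout, too few to be tested.

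The chromatin around CCL22 did not change in a single direction. The peak over its promoter (chr16:57357654-57358916, hg38) had normalised counts of 112 and 111 in wild type and 82.6 and 84.6 in the knockout, a log2 difference of -0.42 (SE 0.26, 95% interval -0.92 to 0.09) that did not pass the DESeq2 test (adjusted p 0.206). The peak 18874 bp before the start (chr16:57339365-57340452, intergenic) went the other way: it held 294 and 263 in wild type and 535 and 514 in the knockout, and rose by 0.91 (SE 0.13, DESeq2 adjusted p 1.01e-10), or 1.88-fold. The other peaks named for CCL22, 33438 and 9384 bp before the start, had -0.40 (adjusted p 0.246) and -0.07 (adjusted p 0.672) by the same DESeq2 test. The 250 bases before the CCL22 start, which lie within the promoter peak, are printed here along the forward strand, since this is the stretch where open chromatin at CCL22 did not pass the test.
CCL22 promoter, chr16:57358533-57358782: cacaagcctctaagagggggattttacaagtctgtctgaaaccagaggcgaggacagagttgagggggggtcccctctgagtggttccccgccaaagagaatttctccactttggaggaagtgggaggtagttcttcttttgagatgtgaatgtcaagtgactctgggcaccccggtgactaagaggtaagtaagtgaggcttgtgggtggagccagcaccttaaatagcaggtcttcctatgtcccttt
The promoter stretch (RefSeq, GRCh38.p14) held none of the motifs searched on both strands, which were GGNNTTTCC and GGNNNTTCC for NF-kB (every match of the first also matches the second), the STAT motif TTCNNNGAA and its form with a longer spacer, the AP-1 motif TGANTCA, and GAAANNGAA, the interferon-stimulated response element (ISRE). The lack of a match says only that these letters are not in this window. The whole promoter peak, 1263 bp wide, held 2 matches to GGNNNTTCC, 1 to GGNNTTTCC and 1 to the STAT form with the longer spacer. The peak 18874 bp before the start, 1088 bp wide, held 2 matches to GGNNNTTCC, 1 to GGNNTTTCC and 2 to TGANTCA.

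At CCL17 the peaks inside the gene rose while those outside it did not pass the DESeq2 test. The peak at chr16:57411245-57411642, in intron 1, had 76.3 and 65.7 in wild type and 125 and 116 in the knockout, a rise of 0.77 (SE 0.26, DESeq2 adjusted p 0.0130). Its neighbour at chr16:57413201-57413974, also in intron 1, went from 556 and 547 to 733 and 780 and rose by 0.46 (SE 0.10, DESeq2 adjusted p 5.27e-05). The groups did not overlap at either peak, nor at some peaks that did not pass, such as the CCL22 promoter peak. The share of all peaks that kept the genotypes apart was not worked out, so nothing is read from this separation. The peak 4478 bp before the start had 0.19 (adjusted p 0.574), and those 12434 and 14371 bp past it -0.29 (adjusted p 0.0805) and -0.04 (adjusted p 0.920), all by the DESeq2 test. Between the CCL22 and CCL17 genes, 3 peaks named for CX3CL1 rose by 0.25, 0.64 and 0.64, and the remaining one had -0.39 (DESeq2 adjusted p 0.142). The median peak within 5 Mb had -0.23, so relative to it the rise of the peak before CCL22 was 1.14 and those in CCL17 were 0.99 and 0.68.

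CXCL9 and CXCL10, the CXCR3 ligands, lie side by side on chromosome 4 and both had over 10 times more RNA in the knockout. CXCL10 (ENSG00000169245, chr4:76021118-76023497, reverse strand) had normalised counts of 554 and 290 in wild type and 6479 and 6758 in the knockout, a log2 fold change of 3.96 (SE 0.24), or 15.6-fold. The wild-type pair differed 1.91-fold and the knockout pair 1.04-fold. CXCL9 (ENSG00000138755, chr4:76001275-76007509, reverse strand) had 53.7 and 71.1 in wild type and 1491 and 1440 in the knockout, a log2 fold change of 4.58 (SE 0.26), or 23.9-fold. CXCL11, the third CXCR3 ligand and the next gene of this cluster, had 10 and 11 reads in wild type and 10 and 10 in the knockout, with a log2 fold change of -0.26 (95% interval -3.02 to 2.51), an interval too wide to show whether it changed.

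The promoter of CXCL10 was more open in the knockout. The peak over it (chr4:76023353-76023777) had 29.1 and 35.0 in wild type and 73.3 and 64.8 in the knockout and rose by 1.12 (SE 0.37, DESeq2 adjusted p 0.00876), or 2.17-fold. It was a small peak, with a mean above that of 21.1% of all peaks. A second peak in intron 3 (chr4:76021727-76022592) had 87.2 and 47.7 in wild type and 100 and 127 in the knockout, and rose by 0.74 (SE 0.31, DESeq2 adjusted p 0.0428). Without wild type A its log2 difference was 1.26 and without wild type B 0.39. The peak at the end of the gene (chr4:76019996-76020268) went down, from 84.4 and 69.9 to 52.0 and 30.8, by -0.89 (SE 0.35, DESeq2 adjusted p 0.0355). The only peak named for CXCL9, at its 3′ end (chr4:76002807-76003441), had 77.2 and 83.7 in wild type and 139 and 114 in the knockout and rose by 0.66 (SE 0.26, DESeq2 adjusted p 0.0299). Among peaks near them with other names, 3 of the 6 peaks named for ART3, a gene that overlaps CXCL10, passed the test at -0.95, 0.45 and 0.72, while the other 3 had -0.25, -0.12 and -0.04, and a peak in an exon of CXCL11 fell from 190 and 191 to 66.8 and 90.1, by 1.29 on the log2 scale. The chromosome 4 cluster thus held peaks that moved both ways within a few kb, while the RNA of CXCL9 and CXCL10 was higher.

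The 250 bases before the starts of both genes are shown, along the gene, because these promoters are textbook targets of NF-kB and interferon signalling, with matches to the motifs above in capitals.
CXCL10 promoter, chr4:76023498-76023747, reverse strand: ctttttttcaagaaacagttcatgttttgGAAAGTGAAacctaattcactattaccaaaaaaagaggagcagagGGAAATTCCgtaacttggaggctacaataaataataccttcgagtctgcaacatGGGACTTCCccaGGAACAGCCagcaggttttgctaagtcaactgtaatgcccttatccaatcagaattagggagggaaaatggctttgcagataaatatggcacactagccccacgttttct
CXCL9 promoter, chr4:76007510-76007759, reverse strand: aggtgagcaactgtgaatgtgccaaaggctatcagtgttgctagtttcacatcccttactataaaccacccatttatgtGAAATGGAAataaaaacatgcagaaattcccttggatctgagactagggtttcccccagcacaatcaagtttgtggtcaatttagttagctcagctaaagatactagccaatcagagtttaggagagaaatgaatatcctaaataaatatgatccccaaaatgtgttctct
The CXCL10 stretch lies wholly within the promoter peak that rose. Counted back from the start, it held GAAAGTGAA at -221, which matches the ISRE, and 3 separate stretches that match an NF-kB form, GGAAATTCC at -176, GGGACTTCC at -122 and GGAACAGCC at -110. The CXCL9 stretch held 1 ISRE match, GAAATGGAA at -171. Of 35116 RefSeq promoters of this length, 6.88% held GAAANNGAA, 17.1% GGNNNTTCC and 5.48% GGNNTTTCC. A match describes letters and not binding. CCL17, CCL4 and CCL5 are named only.

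CCL5, CCL3 and CCL4, the inflammatory CC chemokines of chromosome 17, all had more RNA in the knockout, at low levels. CCL5 (ENSG00000271503, chr17:35871491-35880793, reverse strand) had 4 and 0 reads in wild type and 95 and 85 in the knockout, normalised counts of 3.07 and 0 against 89.2 and 82.5. Its log2 fold change was 5.54 (SE 1.06). Without wild type A the remaining wild-type library held 0 reads, and against a floor of 3 reads in that library the log2 difference was at least 4.36. Relative to the spread of all statistics (statistics centred on their median and divided by their robust SD) CCL5 no longer passed the threshold.

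The largest accessibility change among the 16 peaks was also at CCL5. The peak over its promoter (chr17:35879816-35880806) had 23.6 and 35.0 in wild type and 188 and 203 in the knockout, and rose by 2.75 (SE 0.29, DESeq2 adjusted p 7.84e-20), or 6.73-fold. No other peak named for a ligand gene rose by more than 1.12. Leaving out any 1 library gave between 2.48 and 3.05. This was the 1 peak of the 16 that still passed when tested against a 1.5-fold change or with statistics scaled to their spread.

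CCL3 (ENSG00000277632, chr17:36088256-36090169, reverse strand) had normalised counts of 36.8 and 55.8 in wild type and 328 and 343 in the knockout, a log2 fold change of 2.88 (SE 0.40), or 7.36-fold. CCL4 (ENSG00000275302, chr17:36103827-36105621, forward strand) had 27 and 0 reads in wild type and 137 and 116 in the knockout, or 20.7 and 0 against 129 and 113. Its groups did not overlap, yet its SE of 2.23 around a log2 fold change of 3.52 left it short of the threshold. Its 2 wild-type libraries differed: without wild type B the log2 difference was 2.54, and without wild type A it was at least 4.85 against a floor of 3 reads.

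Both genes have near-identical copies on the same chromosome, CCL3L3 (chr17:36194869-36196758) and CCL4L2 (chr17:36210924-36212878), and how reads shared by a gene and its copy were assigned is not given in the sources used here. CCL3L3 had normalised counts of 298 and 257 in wild type and 334 and 326 in the knockout, with a log2 fold change of 0.25 (95% interval -0.34 to 0.84, DESeq2 adjusted p 0.661). CCL4L2 had 259 and 244 in wild type and 232 and 218 in the knockout, with -0.17 (95% interval -0.81 to 0.48, DESeq2 adjusted p 0.821). In wild type most reads of each pair were assigned to the copy. CCL3 took 11.0% (exact 95% interval 8.23 to 14.3) and 17.9% (13.1 to 23.5) of the reads of its pair in wild type and 49.6% (45.8 to 53.3) and 51.2% (47.4 to 55.0) in the knockout. CCL4 took 7.40% (4.93 to 10.6) and 0% (0 to 2.09, from 0 of 175 reads) in wild type and 35.7% (30.9 to 40.7) and 34.1% (29.1 to 39.4) in the knockout. These intervals cover counting error only. Summed with its copy, CCL3 had normalised counts of 335 and 312 in wild type and 663 and 669 in the knockout. The sum was thus higher in both knockout libraries however the counted reads were split within the pair. Shared reads that were dropped, or given to another copy, would be missing from it. For CCL4 the sums were 280 and 244 in wild type and 360 and 330 in the knockout. CCL3-AS1, a transcript that overlaps CCL3 on the other strand, had 0 and 0 reads in wild type and 14 and 9 in the knockout (DESeq2 adjusted p 0.0874).

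**Figure D2:**
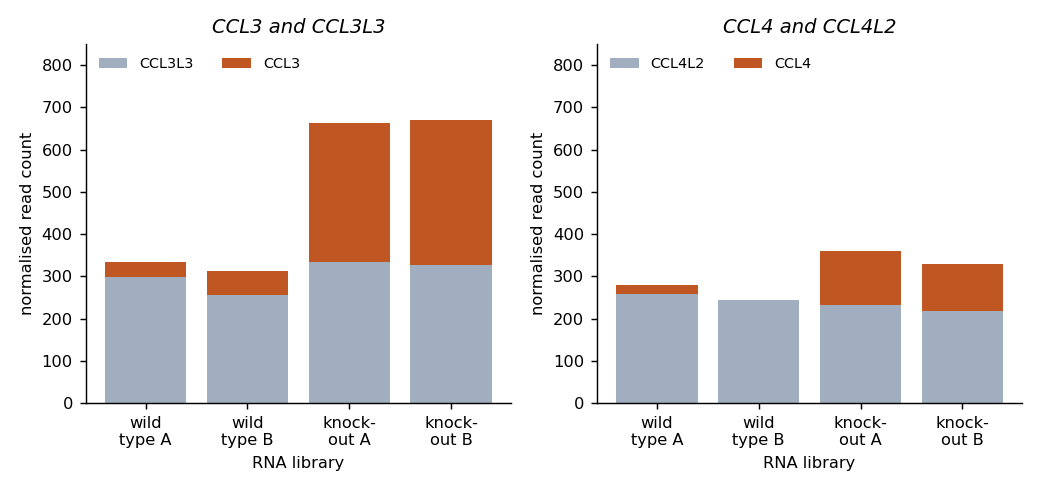
Normalised RNA read count of CCL3 stacked on its copy CCL3L3 (left) and of CCL4 stacked on CCL4L2 (right), 1 bar for each RNA library. The grey copies stay between 218 and 334 in the 8 bars, and the coloured CCL3 and CCL4 segments are taller in both knockout libraries.

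The starts of CCL3 and CCL4 were open in both genotypes. HOMER, the tool behind the authors' peak annotation, named the peaks there for the copies CCL3L1 and CCL4L1, so they are not among the 16. The peak over the CCL3 start (chr17:36089679-36090798) had 1247 and 1313 in wild type and 1386 and 1412 in the knockout, a log2 difference of 0.13 (95% interval -0.01 to 0.27, DESeq2 adjusted p 0.150). The peak over the CCL4 start (chr17:36103223-36104192) had 630 and 602 in wild type and 498 and 451 in the knockout, and fell by 0.37 on the log2 scale (DESeq2 adjusted p 0.00369). At CCL4, the ATAC reads placed at the start were therefore fewer where its RNA reads were more numerous. How ATAC reads shared by a gene and its copies were placed is not given in the sources used here. The peaks over the starts of CCL4L2 and CCL3L3 had -0.42 and -0.31, near the value at the CCL4 start. The peak 7359 bp past the CCL3 start (chr17:36082213-36083354) went from 583 and 604 to 515 and 422, by -0.34 (SE 0.12, DESeq2 adjusted p 0.0178). The second peak named for CCL3 (chr17:36188756-36189491) lies nearest the start of CCL3L3, at 7634 bp, and had -0.17 (DESeq2 adjusted p 0.138).

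The 250 bases before the RefSeq starts of CCL3 and CCL3L3 are set side by side to show how alike the promoters of a ligand gene and its copy are; capitals mark the motif match.
CCL3 promoter, chr17:36090144-36090393, reverse strand: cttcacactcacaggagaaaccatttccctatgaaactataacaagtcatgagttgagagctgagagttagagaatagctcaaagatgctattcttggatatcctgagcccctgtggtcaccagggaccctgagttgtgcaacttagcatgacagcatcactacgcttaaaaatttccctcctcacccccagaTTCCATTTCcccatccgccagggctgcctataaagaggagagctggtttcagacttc
CCL3L3 promoter, chr17:36196759-36197008, reverse strand: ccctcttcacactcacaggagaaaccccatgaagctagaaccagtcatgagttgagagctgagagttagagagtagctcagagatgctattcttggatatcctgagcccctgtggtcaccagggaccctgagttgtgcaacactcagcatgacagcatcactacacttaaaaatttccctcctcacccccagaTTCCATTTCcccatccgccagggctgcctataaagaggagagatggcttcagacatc
Aligned, they shared 234 identical bases, with 10 mismatches and 12 gap bases, an identity of 91.4%. Both held the same single match, TTCCATTTC at -57, an ISRE read on the other strand. Over the start of CCL3L3, the peak had 2839 and 3095 in wild type and 2351 and 2427 in the knockout, and fell by 0.31 on the log2 scale (DESeq2 adjusted p 1.62e-07).

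Across the 16 peaks named for the ligand genes, 7 were higher in the knockout, 2 lower and 7 did not pass the DESeq2 test. Over all 70312 peaks 20.4% were higher and 15.5% lower, 35.9% in all, so the share of changed ligand peaks was 9 of 16 against that background. CCL4 had no peak of its name. Of the 36 peaks within 50 kb of a ligand start whatever their name, 12 were higher and 6 lower, with a median log2 fold change of -0.0046 and a range from -1.29 to 2.75. CCL22, CCL17 and CCL5 had peaks that rose and none that fell within 50 kb, CCL3 and CCL4 had peaks that fell and none that rose, and CXCL9 and CXCL10 had both. Higher RNA of the 7 genes was therefore not matched by a shared direction of accessibility at their starts: the promoter peaks of CCL5 and CXCL10 rose, those of CCL22 and CCL3 did not pass the test, and that of CCL4 fell. For CCL3 and CCL4, the placing of reads shared with their copies is not known. No peak lay over the starts of CCL17 and CXCL9.

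**Figure D3:**
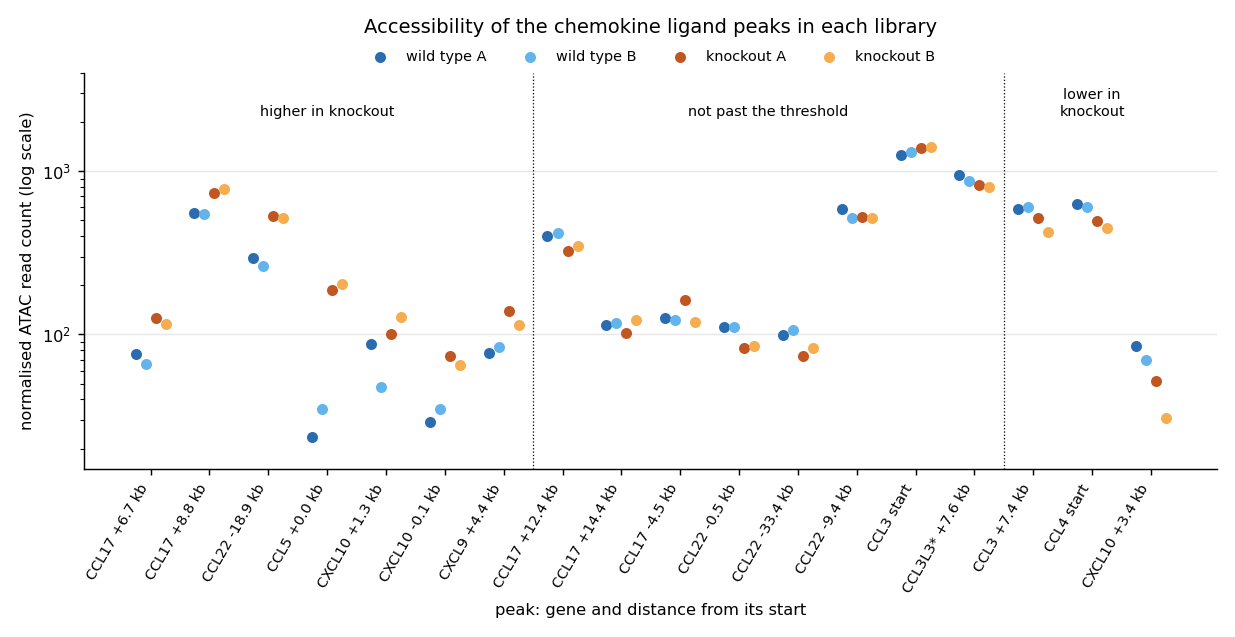
Normalised ATAC read count (vertical axis, logarithmic) in each of the 4 ATAC libraries for the 16 peaks named for ligand genes and for the peaks over the CCL3 and CCL4 starts, ordered by call. The peak marked with an asterisk is named for CCL3 in the deposited annotation and lies nearest to CCL3L3; the CCL5 promoter peak shows the widest gap between genotypes.

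**Figure D4:**
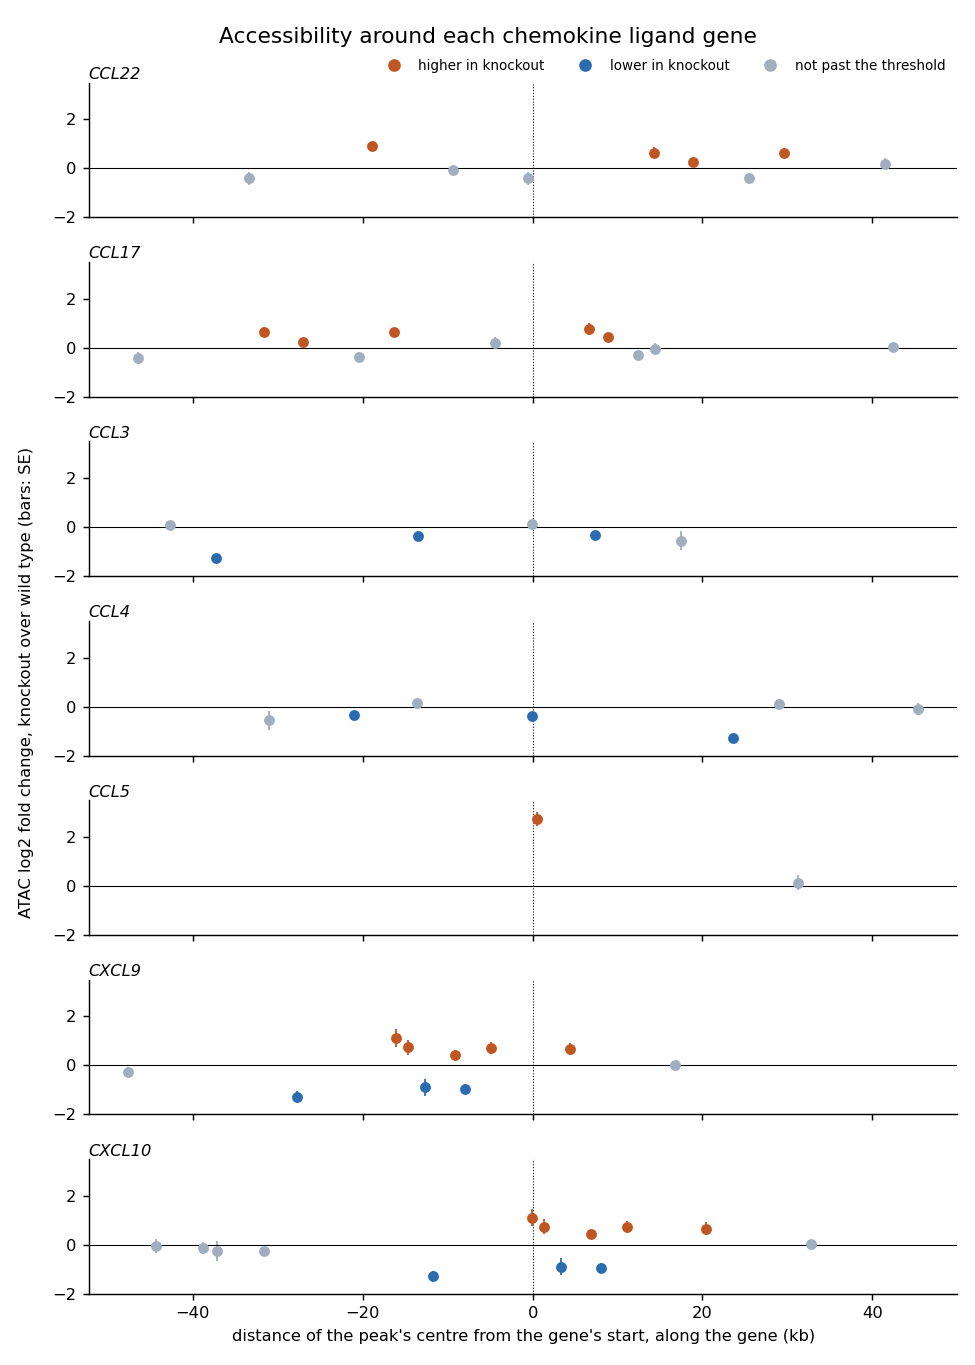
Deposited ATAC log2 fold change with its SE (vertical axis) of every peak within 50 kb of each ligand gene's start, against the distance of the peak's centre along the gene in kb. Neighbouring genes share peaks, so the CCL22 and CCL17, CCL3 and CCL4, and CXCL9 and CXCL10 panels repeat points; values run from -1.29 to 2.75.

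Per kb of annotated exon, the order of the ligands was led by CXCL10 and CCL22. In the knockout CXCL10 had 168 and 175 CPM per kb, CCL22 68.1 and 66.2, CXCL9 16.5 and 15.9, CCL17 9.02 and 8.86 and CCL3 6.70 and 6.99, each pair apart from the next. CCL4 with 2.18 and 1.91 and CCL5 with 1.99 and 1.84 overlapped. In wild type CXCL10 had 14.4 and 7.52 and CCL22 7.51 and 6.73 CPM per kb, and the other 5 genes lay at or below 1.14. There the ranges of CCL3 (0.75 and 1.14), CCL17 (0.41 and 0.89) and CXCL9 (0.59 and 0.78) overlapped, so their order in wild type was not resolved, whereas in the knockout CXCL9 stood above both.

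Few other ligand genes were expressed. Of a list of 40 further chemokine ligands, 10 were in the table and 4 had enough reads to be tested, CCL3L3, CCL4L2, CXCL11 and CCL27. Of these 0 passed the DESeq2 test and 0 had an unadjusted p under 0.05, and CCL27, a skin chemokine, had the lowest adjusted p at 0.181 from 14 reads in 1 wild-type library. The homeostatic ligands CCL19, CCL21 and CXCL12 were not in the table, and CXCL13 had 1 and 0 reads in wild type and 4 and 5 in the knockout.

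The receptors CCR4, CXCR3 and CCR1 were close to undetected. CCR4, the receptor of CCL22 and CCL17, had normalised counts of 0 and 0 in wild type and 2.82 and 0.97 in the knockout. CXCR3, the receptor of CXCL9 and CXCL10, had 1.53 and 0 in wild type and 0 and 0.97 in the knockout. CCR1 had 0.77 and 0 in wild type and 1.88 and 0 in the knockout. Of 23 receptor genes 16 were in the table and 8 were tested, of which 3 were higher in the knockout and 0 lower. Over all tested genes 9.89% passed as higher and 19.2% in either direction, and nothing is read from the receptor count. CCR7, the receptor that guides B and T cells into lymph nodes, had 804 and 1050 in wild type and 7202 and 6826 in the knockout and rose by 2.92 (SE 0.18, DESeq2 adjusted p 5.00e-56). ACKR3, a scavenging receptor for CXCL11 and CXCL12, rose by 2.81 (SE 0.23, DESeq2 adjusted p 1.31e-30) and CXCR4, the signalling receptor of CXCL12, by 0.89 (SE 0.19, DESeq2 adjusted p 3.53e-05). ACKR4, a scavenger of CCL19 and CCL21, had -0.76 (DESeq2 adjusted p 0.0590). The median of the 8 receptors was 0.33.

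Genes known to regulate chemokine ligands changed in both directions. All 30 on the list were tested, and 6 were higher and 7 lower in the knockout, with a median of -0.06 against 0.02 over all genes. Thus 13 of 30 passed, where 19.2% of all tested genes passed in either direction, and 19 had an unadjusted p under 0.05. The smallest adjusted p among them belonged to IRF4, a lymphoid transcription factor induced on B cell activation, which rose by 3.65 (SE 0.16, DESeq2 adjusted p 1.25e-112). TNFAIP3, an inhibitor of NF-kB signalling that NF-kB itself induces, rose by 2.86 (SE 0.17, DESeq2 adjusted p 4.82e-61), TRAF1, an adaptor of TNF receptors, by 1.59 (SE 0.17, adjusted p 2.15e-18) and NFKBIA, the NF-kB inhibitor, by 1.41 (SE 0.16, adjusted p 7.47e-16) in the same DESeq2 fit. The other 2 that rose were CD40, a co-stimulatory receptor, at 1.19, and IRF7, an interferon regulatory factor, at 2.26. Among those that fell were SPI1, a myeloid and B cell transcription factor, at -1.32, IL4R, the interleukin 4 receptor chain, at -0.94, IRF3 at -0.90, IRF8 at -0.84, TRAF2 at -0.77 and STAT6, which acts below that receptor, at -0.54. The NF-kB subunits NFKB1, NFKB2, REL, RELA and RELB had log2 fold changes of 0.31, 0.47, 0.50, 0.11 and 0.07, and IRF1, a factor of the interferon gamma response, -0.10. None of these passed the test, though NFKB1, NFKB2 and REL had unadjusted DESeq2 p-values of 0.0468, 0.0135 and 0.0286. The regulators were listed with earlier results of these libraries known, so nothing is read from the count that passed.

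**Figure D5:**
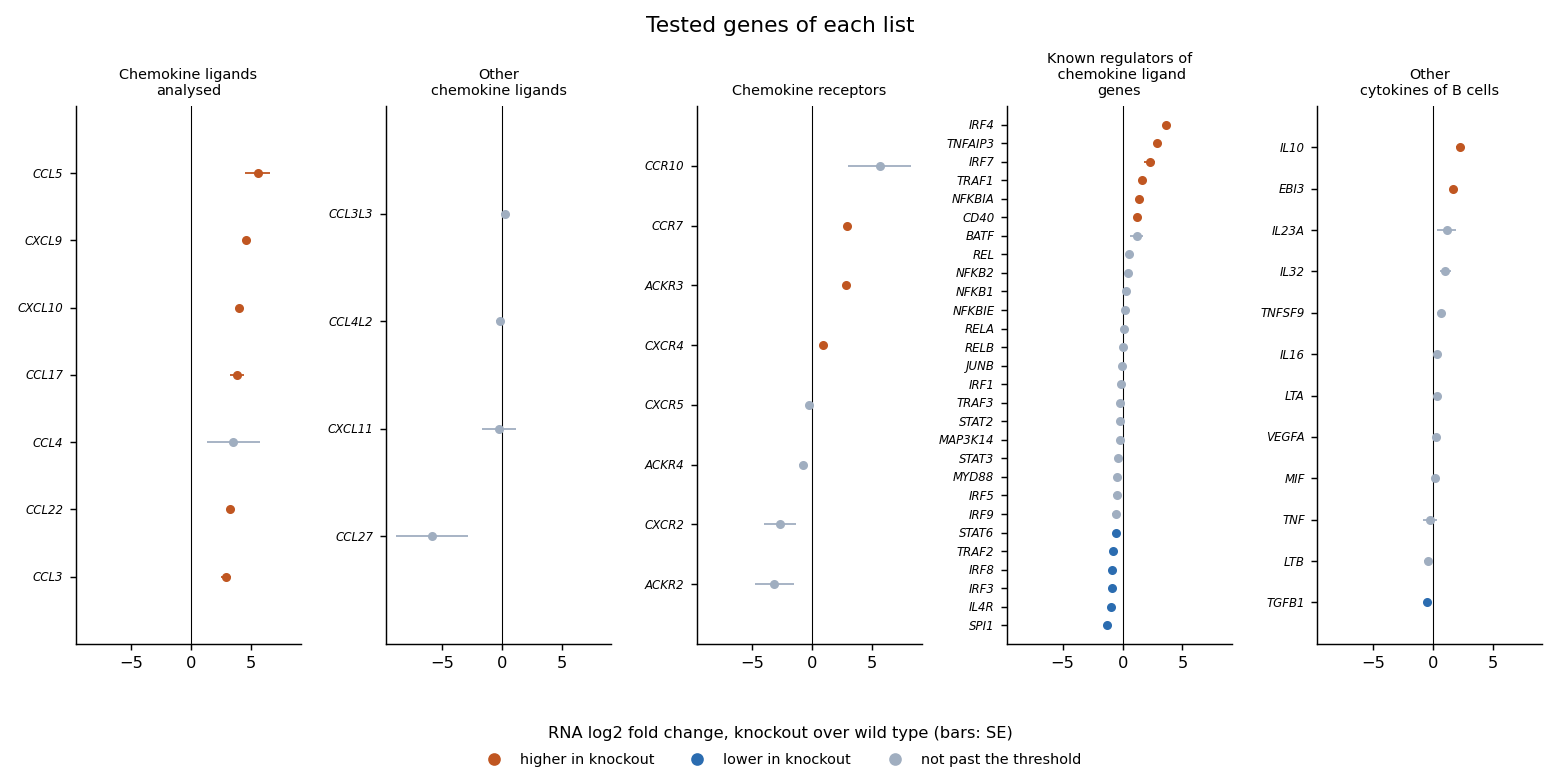
Deposited RNA log2 fold change with its SE (horizontal axis) of the 7 ligands and of tested genes on the lists of other ligands, receptors, known regulators (28 of 30 drawn) and B cell cytokines. The 7 ligands lie to the right of 0, from 2.88 to 5.54, while the regulators drawn run from -1.32 to 3.65.

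The genes whose pattern was most like CCL22, by nearest log2 fold change among 3030 protein-coding genes with a mean within 2-fold of its own, were RGS1 at 3.49, CCR7 at 2.92 and FCER2, the low-affinity IgE receptor gene, at 2.90. RGS1 is a regulator of G protein signalling, with the counts given above. FCER2 had 469 and 504 in wild type and 3745 and 3507 in the knockout. This likeness is over 4 libraries of 2 genotypes.

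Genes near the ligands were counted within 250 kb. Within 250 kb of a ligand start on chromosome 16, 15 other genes were in the table and 9 were tested. Of these, 5 had an unadjusted p under 0.05, and 3 passed the DESeq2 threshold as higher and 0 as lower, where 9.89% of all tested genes passed as higher: RSPRY1, a ring finger and SPRY domain gene, at 0.68, DOK4, an adaptor protein gene, at 2.13 and ADGRG5, an adhesion receptor gene, at 2.79. On chromosome 17, 21 were in the table and 0 of 10 tested passed the DESeq2 threshold, with 1 at an unadjusted p under 0.05. On chromosome 4, 7 were in the table and 0 of 5 tested passed it, with 0 at an unadjusted p under 0.05.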

How the data were processed

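RNA-seq and ATAC-seq of wild-type and RGS-SE knockout Raji cells were deposited as 1 result table per assay. The submitters' processing notes list STAR and featureCounts, Bowtie2 and HOMER, DESeq2, and the trimmers Trimmomatic, Trim Galore and cutadapt, with GRCh38 or hg38. For the peak caller and for tool versions and settings, nothing is given in the sources used here. Each table gives, per the file headers, the DESeq2 mean normalised count over 4 libraries (a signal, counts divided by the authors' size factors), the log2 fold change and its SE, the Wald score and the p-value with its adjusted form. Another deposited unit is the peak's distance to a start in bp, a value of the other kind in the ATAC file. Columns of other samples numbered 0.

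The reads of each library were worked out from the deposited means, which carry 15 significant digits: each mean is a whole-number combination of 4 steps, 1 for each size factor. The steps came from lattice reduction of the 28 lowest means (sympy 1.14.0). Counts were accepted where 1 solution matched the deposited log2 fold change within 0.0001. Below a set mean they were also accepted where the search found only 1 solution. Features with 0 reads in both libraries of a genotype were accepted in this second way, since no fold change was fitted to them. Among these were the chromosome 1 peak and ENSG00000289995, from which the direction was read. Of 500 genes and 500 peaks drawn at random with means from 5 to 500, all 500 of each were solved, 475 and 499 of them within that tolerance. For CCL22 the mean allowed 8 solutions and for CXCL10 4, of which 1 matched; for the other ligand genes it allowed 1. The method was tested on simulated data. Libraries lettered A and B pair nothing across groups or assays.

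No count table was used, so the authors' DESeq2 Wald test (adjusted p under 0.05) served for calls and edgeR was not run. CPM are normalised counts scaled to the table's summed mean of 3.28e+07. Intervals are 95% normal intervals of the log2 fold change, and those of shares are exact binomial. Python 3.11.15, numpy 2.4.6, pandas 2.3.3 and scipy 1.17.1 were used. All 25377 gene identifiers were found in GENCODE release 44 (GRCh38), whose exons gave the lengths. Promoter sequences are from RefSeq (GRCh38.p14), where 4 of the 7 genes were found. Replicates are labelled biological; p-values measure the spread between these libraries.

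The ligand genes, lists and motifs were chosen with earlier results of these data known. The text names all 7 ligands and their peaks, up to 4 genes with the smallest adjusted p of each list of other ligands, receptors, regulators and B cell cytokines (2 where 0 passed), and the 3 genes most like CCL22; other genes named, among them NF-kB subunits, receptors of the ligands and neighbours, were chosen after their values were seen. Markers of B cells, T and NK cells, myeloid and dendritic cells, and epithelial and stromal cells were checked. Certain genes and 1 sequence are not reported here. Alternatives were other thresholds, filters, scalings, centring and leaving out each library.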

Additional observations from a re-analysis of the deposited data

How the results depend on the processing

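The count of ligand genes past the threshold was 6 with an adjusted p threshold of 0.01, a test against a 1.5-fold change, no filter on low counts or local centring on ATAC peaks within 5 Mb (the last chosen after seeing the data), 5 with scaled statistics (CCL5 was lost) and 4 of 4 tested with a minimum mean of 100. The count of ligand peaks past it, 9 of 16, was 4 at an adjusted p threshold of 0.01, 1 in a test against a 1.5-fold change, 1 with scaled statistics, 5 of 10 tested with a minimum mean normalised count of 100, 8 with local centring (the peak at the end of CXCL10 was lost, at -0.84) and 18 of 36 for peaks within 50 kb of a start. Over all 70312 peaks, calls fell from 25228 to 18668 at 0.01, to 6149 against a 1.5-fold change and to 2405 with scaled statistics. They were 15146 of 37563 with the minimum mean and 21707 with local centring. Over all 17013 genes, calls fell from 3261 to 2166, 671 and 679 under the same first 3 settings. They were 3077 of 10675 with the minimum mean, 2908 of 25377 with no filter and 2842 with local centring. Nothing is read from the ligand counts beside these. Centring on the median changed no call among the 7 genes and 16 peaks. Leaving out each library in turn, a value with no test, gave log2 differences of 2.54 to 5.86 for the 7 genes, 2 of them lower bounds, and reversed none of the 6 genes and 9 peaks past the threshold. No paired analysis was possible because the deposited columns carry no replicate numbers. With 2 libraries a group, the widest of these ranges were those of CCL4 among the genes (2.54 to at least 4.85) and of the intron 3 peak of CXCL10 among the peaks (0.39 to 1.26), the former with 27 and 0 wild-type reads.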

Other observations

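Secreted factors of B cells other than chemokines were also measured. Of a list of 16 cytokine genes 15 were in the table and 12 were tested, of which 2 were higher and 1 lower in the knockout. Over all tested genes 19.2% passed in either direction and 9.89% as higher, and nothing is read from the cytokine count. IL10, an immunosuppressive cytokine of regulatory B cells, had normalised counts of 128 and 79.5 in wild type and 505 and 492 in the knockout and rose by 2.25 (SE 0.34, DESeq2 adjusted p 1.59e-09). EBI3, a subunit of interleukins 27 and 35, went from 192 and 205 to 657 and 599 and rose by 1.66 (SE 0.27, DESeq2 adjusted p 4.18e-08). TGFB1, a suppressive growth factor, had 3335 and 4481 in wild type and 2676 and 2832 in the knockout and fell by 0.50 on the log2 scale (DESeq2 adjusted p 0.0391). IL32, an inflammatory cytokine, had a log2 fold change of 1.02 and did not pass the test. TNF and lymphotoxin alpha (LTA), both NF-kB targets, had -0.23 and 0.32 and did not pass it either.

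Among copies of the ligand genes, the peak over the start of CCL4L2 went from 1494 and 1559 to 1105 and 1175 and fell by 0.42 on the log2 scale (DESeq2 adjusted p 7.91e-08). An intergenic peak between CCL4 and CCL3L3 (chr17:36126842-36127968) went from 552 and 535 to 208 and 245 and fell by 1.27 (DESeq2 adjusted p 3.18e-18), the lowest value of any peak within 50 kb of CCL3 and CCL4.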
